A study of Mus musculus with 56 samples.

Results

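Neat1 and Malat1 are neighbouring long noncoding RNA genes on mouse chromosome 19, and their transcripts stay in the nucleus. The gene table was searched for both genes by their GENCODE identifiers, and the transcript table for their annotated transcripts. This gave 2 of 25415 genes and 4 of 77120 transcripts. Liver RNA was taken from C57BL/6J females at 9 weeks of age, kept with 12 h of light per day, for which the labels name no altered allele. For 7 days the animals received food either in the day (daytime-restricted feeding, DRF) or in the night (nighttime-restricted feeding, NRF), and NRF was the reference regimen. Collections, named by zeitgeber time (ZT, counted in h from the onset of light), were made at ZT 0, 4, 8, 12, 16, 20 and 24 from 4 animals per regimen and time, which gave 14 groups and 56 libraries.

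Malat1 is one of the most abundant long noncoding RNAs of mammalian cells. It gathers in nuclear speckles, bodies that store splicing factors, and its 3′ end is made by RNase P, which cuts off a small tRNA-like RNA named mascRNA. Neat1 is transcribed as a short, polyadenylated RNA and as a long RNA from the same start site. The long form is the scaffold of paraspeckles, nuclear bodies built with the RNA-binding proteins SFPQ and NONO, and its 3′ end is made by RNase P as well. In the liver, as in other tissues, paraspeckles are known to hold back certain RNAs in the nucleus, and their abundance is known to change with the state of the cell.

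In GRCm38, the build of the annotation, Neat1 (ENSMUSG00000092274) spans chr19:5824708-5845478 on the minus strand and has an exon length of 20771 bases. Malat1 (ENSMUSG00000092341) spans chr19:5795690-5802672 on the same strand with an exon length of 6983 bases. Both are annotated as lincRNA with 4 transcripts each, of which the transcript table lists 3 for Neat1 and 1 for Malat1. Neat1-201 (ENSMUST00000173672) is the long form. Neat1-202 (ENSMUST00000174287) is the short form, 3004 bases long after 166 bases are spliced out, and it ends at position 3172 of the long form, 15.3% of the way along it. Neat1-204 (ENSMUST00000232969) has 711 bases within chr19:5825315-5828012, near the 3′ end of the long form. Malat1-201 (ENSMUST00000172812) is the unspliced transcript of 6983 bases.

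**Figure D1:**
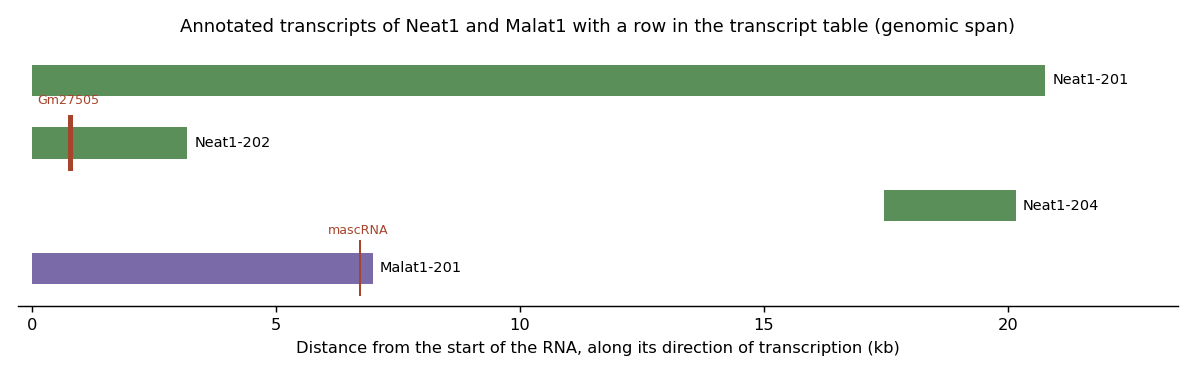
Genomic span of the transcripts of Neat1 (green) and Malat1 (purple) that have values, with the distance from each RNA's start in kb along its direction of transcription on the x axis; red marks are the annotated Gm27505 and mascRNA. The short Neat1-202 covers the first part of the long Neat1-201, and Gm27505 lies in the stretch that both contain.

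The ends of these RNAs separate the short form of Neat1 from the long form and from Malat1, so they are printed 5′ to 3′ as DNA. The first stretch, chr19:5842267-5842386 on the minus strand, surrounds the end of Neat1-202, with its AATAAA polyadenylation signal in capitals. That signal begins 20 bases before the end of the short form, and the last 100 bases of the long form hold 0 matches to it.
Neat1 at the end of the short form: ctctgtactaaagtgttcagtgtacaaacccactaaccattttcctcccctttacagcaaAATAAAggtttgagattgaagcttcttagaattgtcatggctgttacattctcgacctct

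The next stretches are the last 110 bases of Neat1-201 (chr19:5824708-5824817) and the 110 bases of Malat1-201 just before the mascRNA (chr19:5795982-5796091), both on the minus strand. Capitals mark the U-rich and A-rich tracts, which are known to form a triple helix that protects such ends in place of a poly(A) tail. Each stretch holds 3 marked tracts, and the order along the RNA is the same in both. The marking allowed a shorter run of U before the C of the first tract in Neat1 than in Malat1. The equal number of tracts is therefore not a result.
Neat1 3′ end: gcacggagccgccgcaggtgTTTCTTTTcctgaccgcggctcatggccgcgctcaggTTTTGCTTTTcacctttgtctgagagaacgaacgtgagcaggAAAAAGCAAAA
Malat1 before the mascRNA: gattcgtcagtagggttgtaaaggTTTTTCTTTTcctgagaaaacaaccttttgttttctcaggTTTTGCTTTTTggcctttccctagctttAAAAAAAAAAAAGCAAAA

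The promoter table held an entry for Malat1 (chr19:5802623-5802922, minus strand, RefSeq, GRCm38.p6), from 250 bases before to 50 bases after the start, and 0 entries for Neat1. It was searched on both strands for motifs known from daily and fasting-related transcription. TGACG, the core of the cAMP response element, matched 3 times, at -154, -45 and -3 from the start, and 20.8% of 32851 promoters of that length held at least 1 match. The E-box CACGTG (in 7.15% of promoters), the D-box TTATGTAA (0.938%), the REV-ERB/ROR core AGGTCA (16.3%), the full cAMP response element TGACGTCA (1.79%), the heat shock core GAANNTTC (7.86%) and the TATA box TATAAA (13.6%) had 0 matches in it. Capitals mark the matches in the sequence, which read CGTCA where the match is on the other strand.
Malat1 promoter: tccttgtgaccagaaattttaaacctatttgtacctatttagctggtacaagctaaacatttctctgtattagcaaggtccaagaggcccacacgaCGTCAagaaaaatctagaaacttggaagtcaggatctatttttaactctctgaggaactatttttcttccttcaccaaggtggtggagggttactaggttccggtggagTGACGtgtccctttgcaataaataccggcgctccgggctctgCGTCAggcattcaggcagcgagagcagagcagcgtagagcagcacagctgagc

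Values are given as scaled counts, which were recovered from the deposited values and put on 1 scale per library. In them 1 unit stood for between 304 and 723 recovered counts, depending on the library, and the sum of recovered counts per library, in units of 1000000, lay between 301 and 676 (median 475). The tissue carried its label: the summed level of the 5 measured of 6 hepatocyte markers lay between 97368 and 157390 scaled counts in every library. Markers of other liver cells were present at lower sums, with 338 to 475 scaled counts for sinusoidal endothelial cells (5 of 5 measured), 478 to 975 for Kupffer cells (4 of 5), 644 to 922 for stellate cells (5 of 5), 18.5 to 38.5 for cholangiocytes (4 of 4), 14.3 to 34.8 for lymphocytes (4 of 4) and 299 to 1324 for erythroid cells (3 of 3). None of the 4 pancreas markers had a value, and the 1 measured of 3 adipocyte markers stayed at or below 0.0657.

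Malat1 was abundant and Neat1 was not. Malat1 averaged 605 ± 194 scaled counts (SD over n = 56 libraries) and ranged from 277 to 1263, a 4.55-fold range. Neat1 averaged 7.90 ± 4.50 scaled counts and ranged from 1.86 to 28.9, a 15.5-fold range. Per kb of exon, the scale on which genes can be compared, the mean level was 86.6 scaled counts for Malat1 and 0.381 for Neat1, a 227.6-fold difference. On that scale Malat1 ranked 509 and Neat1 14096 among 25095 genes.

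Both RNAs varied more between animals of a group than most genes did. The SD of log2(scaled count + 1) within groups was 0.69 for Neat1 and 0.39 for Malat1, against a median of 0.17 over the 13557 genes with a mean scaled count of at least 1. Of those genes 98.2% varied less than Neat1 and 92.3% varied less than Malat1. The coefficient of variation within a group lay between 7.93% (DRF ZT24) and 88.0% (NRF ZT20) for Neat1, with a median of 32.2%, and exceeded 50% in 4 of 14 groups. For Malat1 it lay between 4.63% (DRF ZT4) and 53.2% (NRF ZT4), with a median of 21.7%, and exceeded 50% in 1 group.

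The first comparison asks how Malat1 moved over the day in each regimen. Under NRF, Malat1 was low and tight at ZT8, where the 4 animals had 397, 387, 463 and 450 scaled counts. It was high at ZT16 (1019, 782, 893 and 513) and at ZT20 (1263, 556, 949 and 519). At ZT16 and ZT20 every animal lay above every animal of ZT8, although the spread at these times was wide. How many of all genes separate in this way is not given here. The remaining NRF animals had 969, 527, 457 and 507 at ZT0, 1093, 277, 579 and 592 at ZT4, 744, 470, 511 and 632 at ZT12, and 567, 680, 574 and 967 at ZT24. Each of ZT0, ZT4 and ZT24 held a single animal well above the others of its group, and ZT4 also held the lowest value of all libraries (277).

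Under DRF, Malat1 stayed in a narrower band. The animals had 546, 657, 588 and 521 scaled counts at ZT0, 510, 502, 555 and 512 at ZT4, and 498, 600, 578 and 622 at ZT8. They had 755, 417, 763 and 804 at ZT12, which held the 3 highest values of the regimen. The later groups had 605, 387, 591 and 551 (ZT16), then 446, 489, 426 and 508 (ZT20), and 593, 643, 375 and 494 (ZT24). Over all times the DRF libraries ranged from 375 to 804 and the NRF libraries from 277 to 1263.

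A cosine with a period of 24 h was fitted to each gene in both regimens at once (limma on log2(scaled count + 1), p-values adjusted over 25095 genes by the Benjamini-Hochberg procedure). Malat1 passed the test for a rhythm under NRF, with a log2 amplitude of 0.39, a peak at 18.9 h and an adjusted p of 0.00877, where 43.5% of all genes passed. Under DRF its log2 amplitude was 0.14 with an adjusted p of 0.541, where 34.8% of all genes passed. Leaving out any single library kept the NRF call (adjusted p between 0.000497 and 0.0349). The exact Kendall rank test did not call it (tau 0.441, adjusted p = 0.154). That test sets the ranks against 12 cosine templates and corrects for the choice among them. The limma test for any difference among the 7 times did not call it either (adjusted p = 0.0801). The last test passed for 44.6% of genes under NRF and 40.4% under DRF.

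The difference between the regimens was tested in the same fit. The cosines of Malat1 differed by 0.50 on the log2 scale between DRF and NRF (limma, adjusted p = 0.0179), where 38.7% of genes passed. This call was kept without any single library (adjusted p between 0.00224 and 0.0404), and with the total recovered count as a covariate (0.0387). It was not reached when the regimen was permuted within each time (100000 permutations on scaled counts, p = 0.0138, adjusted p = 0.055 over 4 tests) or on the deposited values (adjusted p = 0.0668). When the NRF cosine was first shifted by 12 h, the remaining difference was 0.30 with an adjusted p of 0.28, where 34.2% of genes passed. On the deposited values this remaining difference did pass (0.1146, limma, adjusted p = 0.00467). The rhythm-adjusted mean was lower by 0.14 ± 0.10 (SE) on the log2 scale under DRF, which did not pass (adjusted p = 0.468), where 6.73% of genes passed.

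**Figure D2:**
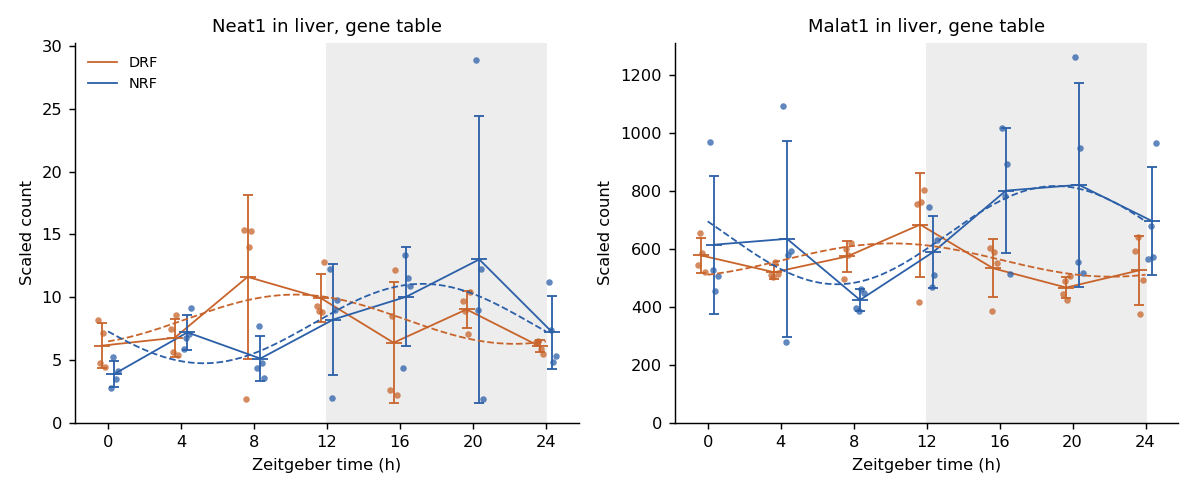
Scaled counts of Neat1 (left) and Malat1 (right) against zeitgeber time, with 1 point per animal, horizontal marks and bars for the mean ± SD of 4 animals, solid lines between means, dashed lines for the fitted cosines and grey for the dark phase. Malat1 under NRF ran from a mean of 424 at ZT8 to 822 at ZT20 while DRF means stayed between 467 and 684, and the Neat1 groups overlapped at every time.

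At single times the Malat1 groups separated at ZT8 and at ZT20. At ZT8 the DRF mean was 574 ± 54.2 scaled counts (SD, n = 4) and the NRF mean 424 ± 37.8, a ratio of 1.35. At ZT20 the order was reversed, with 467 ± 37.8 under DRF and 822 ± 353 under NRF, a ratio of 0.568. At both times the groups did not overlap, and the two-sided exact permutation test gave p = 0.0286, the smallest that 4 against 4 animals allow, and 0.2 after adjustment over 14 tests. The share of all genes without overlap at these times is not given here, so the lack of overlap is a description. Across all genes the limma test at ZT20 gave a log2 difference of -0.72 ± 0.27 (SE) with an adjusted p of 0.0759, and no time passed for Malat1. The share of genes that passed was 15.9% (ZT0), 20.3% (ZT4), 12.9% (ZT8) and 15% (ZT12) in the light phase and up to its end, and 15.1% (for ZT16), 13.7% (for ZT20) and 14% (for ZT24) later. In bulk liver, fewer cells that hold an RNA and less RNA per cell cannot be told apart. Summed hepatocyte markers lay between 110690 and 125670 scaled counts at NRF ZT8 and between 125890 and 141520 at NRF ZT20. Summed sinusoidal endothelial markers lay between 412 and 475 at NRF ZT8 and between 343 and 392 at NRF ZT20. Neither sum overlapped between these groups, while those of Kupffer cells, stellate cells, cholangiocytes, lymphocytes and erythroid cells did. At DRF ZT20 the hepatocyte sum (116360 to 132620) overlapped that of NRF ZT20, and the endothelial sum (428 to 461) did not. Of 5 measured hepatocyte markers 3 passed for a rhythm under NRF, as did 3 of 5 endothelial markers, where 43.5% of all genes passed. These sums are therefore not a count of cells. How often sums of other genes fail to overlap between these groups is not given here. The part of the cell types named above in the Malat1 values was not tested.

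Neat1 showed no rhythm that passed a test across genes in either regimen. Its 4 animals had 2.75, 5.25, 3.46 and 4.11 scaled counts at NRF ZT0, the lowest group, and 28.9, 9.01, 12.3 and 1.87 at NRF ZT20, the group with the highest mean and the widest spread. The other NRF animals had 5.84, 6.78, 7.07 and 9.11 at ZT4, then 4.40, 7.69, 4.77 and 3.602 at ZT8, then 12.2, 1.97, 8.95 and 9.75 at ZT12, then 4.35, 13.4, 11.5 and 10.9 at ZT16, and 11.2, 7.37, 4.85 and 5.35 at ZT24. The groups at ZT12, ZT16 and ZT20 thus each held 1 animal at 1.87 to 4.35 beside 3 others at 8.95 or more.

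The DRF animals showed the same kind of split. Neat1 had 15.36, 1.86, 13.997 and 15.3 scaled counts at ZT8 and 2.58, 8.54, 12.2 and 2.23 at ZT16. Its values were closer together at the remaining times, with 8.19, 4.79, 7.13 and 4.45 at ZT0, then 7.48, 5.66, 8.56 and 5.37 at ZT4, then 9.28, 8.91, 8.79 and 12.8 at ZT12, then 9.73, 8.90, 7.06 and 10.4 at ZT20, and 6.44, 6.53, 5.90 and 5.50 at ZT24. Neat1 groups of the 2 regimens overlapped at every time.

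By the same limma fit the log2 amplitude of Neat1 was 0.22 under DRF (adjusted p = 0.653) and 0.35 under NRF (adjusted p = 0.305), the cosines differed by 0.44 (adjusted p = 0.439), and the rhythm-adjusted mean differed by 0.11 ± 0.19 (SE, adjusted p = 0.809). The largest difference at a single time was at ZT8, where the mean was 11.6 ± 6.54 scaled counts under DRF and 5.12 ± 1.79 under NRF (SD, n = 4), a log2 difference of 0.80 with an adjusted p of 0.346. Without the lowest DRF ZT8 animal (1.86) that difference became 1.42 with an adjusted p of 0.037, so 1 library set the side of the threshold. The 2 collections at the same clock time, ZT0 and ZT24, passed the test for neither gene in either regimen, with the largest log2 difference for Neat1 under NRF (0.71, adjusted p = 0.454). Of all genes 3.08% differed between these times under DRF and 7.85% under NRF.

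Cosines fitted to scaled counts of each gene alone gave the sizes in linear units. The rhythm-adjusted mean of Malat1 was 562 ± 33.6 (SE) scaled counts under DRF and 648 ± 33.6 under NRF, with amplitudes of 57.5 ± 45.9 and 170 ± 50.03 and peaks at 10.1 ± 3.27 h and 19.1 ± 1.01 h. For Neat1 the rhythm-adjusted means were 8.25 ± 0.832 and 7.90 ± 0.832, the amplitudes 1.96 ± 1.13 and 3.16 ± 1.24, and the peaks 10.3 ± 2.38 h and 17.2 ± 1.34 h. No difference in mean or amplitude between the regimens passed for either gene after adjustment over 6 tests (adjusted p between 0.153 and 0.771). The 95% interval of the DRF minus NRF mean ran from -182 to 9.55 scaled counts for Malat1 and from -2.02 to 2.71 for Neat1. The fitted peaks differed by -8.96 h for Malat1 (95% interval -15.8 to -2.08 h) and by -6.97 h for Neat1 (-12.5 to -1.49 h), both with an adjusted p of 0.0411. No rhythm was called across genes in DRF for either gene, nor in NRF for Neat1, so the DRF peak times and both peak times of Neat1 are poorly determined. Both peak differences were lost in many of the fits without 1 library and without the ZT24 libraries (adjusted p = 0.0842 for Malat1 and 0.0974 for Neat1).

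Ordered by level, the Malat1 groups ran from NRF ZT8 (424) over DRF ZT20 (467) and DRF ZT4 (520) up to NRF ZT16 (802) and NRF ZT20 (822). Only the lowest steps, from NRF ZT8 to DRF ZT20 and from there to DRF ZT4, were wider than the larger SD of the groups beside them. This held for 2 of 13 neighbouring pairs, and the animals of both pairs still overlapped. They ranged from 387 to 463 (NRF ZT8), from 426 to 508 (DRF ZT20) and from 502 to 555 (DRF ZT4). The Neat1 groups ran from NRF ZT0 (3.89) and NRF ZT8 (5.12) up to DRF ZT8 (11.6) and NRF ZT20 (13.0), and 0 of 13 neighbouring pairs had a step wider than the larger SD.

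The transcript table divides Neat1 into its long and short forms. Its values are estimates, and their scaled values are not on the scale of the gene table. The long Neat1-201 averaged 4.004 ± 2.49 scaled values (SD, n = 56) and ranged from 0.911 to 14.2. The short Neat1-202 averaged 0.215 ± 0.317, ranged up to 1.51 and was listed at 0 in 6 libraries. Per kb these are 0.193 and 0.0717. Neat1-204 was listed at 0 in 32 libraries and reached 0.129 at most. Malat1-201 averaged 194 ± 54.3 and ranged from 90.8 to 364.

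Among the Neat1 transcripts the short form was the one that passed for a daily rhythm, under NRF. The NRF animals had 0.136, 0.331, 0.851 and 0.733 scaled values of Neat1-202 at ZT0, 0.804, 0.348, 0.191 and 1.51 at ZT4, and 0.0953, 0.117, 1.03 and 0.919 at ZT24. In the NRF animals from ZT8 to ZT20 it ranged from 0 to 0.208 with a median of 0.0564. In DRF it reached 0.984 in 1 animal at ZT24 and 0.494 in 1 animal at ZT4, and the group means of the other times lay between 0.047 and 0.146. High values of the short form were thus found around lights on, in some animals of each of these NRF groups and not in others.

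In the limma fit over 56465 transcripts, Neat1-202 passed for a rhythm under NRF with a log2 amplitude of 0.32, a peak at 2.62 h and an adjusted p of 0.000981, where 15.1% of transcripts passed. On the log2(value + 1) scale that amplitude understates the change of so low a transcript. The call was kept without any single library (adjusted p between 0.000225 and 0.0029). Under DRF the log2 amplitude was 0.08 (adjusted p = 0.76), where 10.5% of transcripts passed. The difference between the regimens was 0.26 and did not pass (adjusted p = 0.136), where 14.1% of transcripts passed, so the pattern was not shown to differ between the regimens. After a 12-h shift of the NRF cosine the difference was 0.39 and passed (adjusted p = 0.00994), where 8.98% of transcripts passed. The rhythm-adjusted mean was lower under DRF by 0.15 ± 0.07 (SE) on the log2 scale and did not pass (adjusted p = 0.357), where 1.41% of transcripts passed.

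The fitted peak of the long form fell at another time of day, without passing the test. Under NRF, Neat1-201 had a log2 amplitude of 0.47 and a fitted peak at 16.2 h, which did not pass (adjusted p = 0.187). Its group means under NRF were lowest at ZT0 (1.57 ± 0.596) and highest at ZT20 (6.70 ± 5.50). Malat1-201 gave the same calls as its gene: a rhythm under NRF (log2 amplitude 0.36, peak 18.8 h, adjusted p = 0.0179), no call under DRF (adjusted p = 0.634), and a difference between the regimens of 0.46 (adjusted p = 0.0383). The last of these was lost in 12 of the 56 fits without 1 library and on deposited values (adjusted p = 0.0604), and the NRF rhythm was lost without NRF ZT20 replicate 1 (adjusted p = 0.0592). Neat1-204 passed none of the rhythm tests, with an adjusted p of 0.0576 under NRF.

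The share of Neat1-202 in the summed scaled values of the 3 Neat1 transcripts sets the forms against each other without a correction for length. Neat1-201 has 20771 bases and Neat1-202 has 3004, so this is not a share of molecules. Per kb the means over all libraries were 0.193 for the long and 0.0717 for the short form. In the 12 NRF animals at ZT0, ZT4 and ZT24 its median was 19.2% (1.499% to 42.4%), and it exceeded 20% in 6 of them. In the 16 NRF animals from ZT8 to ZT20 the median was 1.19% (0% to 15.1%), and 0 exceeded 20%. Under DRF the median was 4.90% (0% to 31.5%, 1 of 12 animals over 20%) at the same times and 1.003% (0% to 26.8%, 1 of 16) from ZT8 to ZT20. The times were grouped after the values were seen, so these shares are a description with no test. The estimates divide reads that the forms share, so a share that rises for one form must fall for the other.

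**Figure D3:**
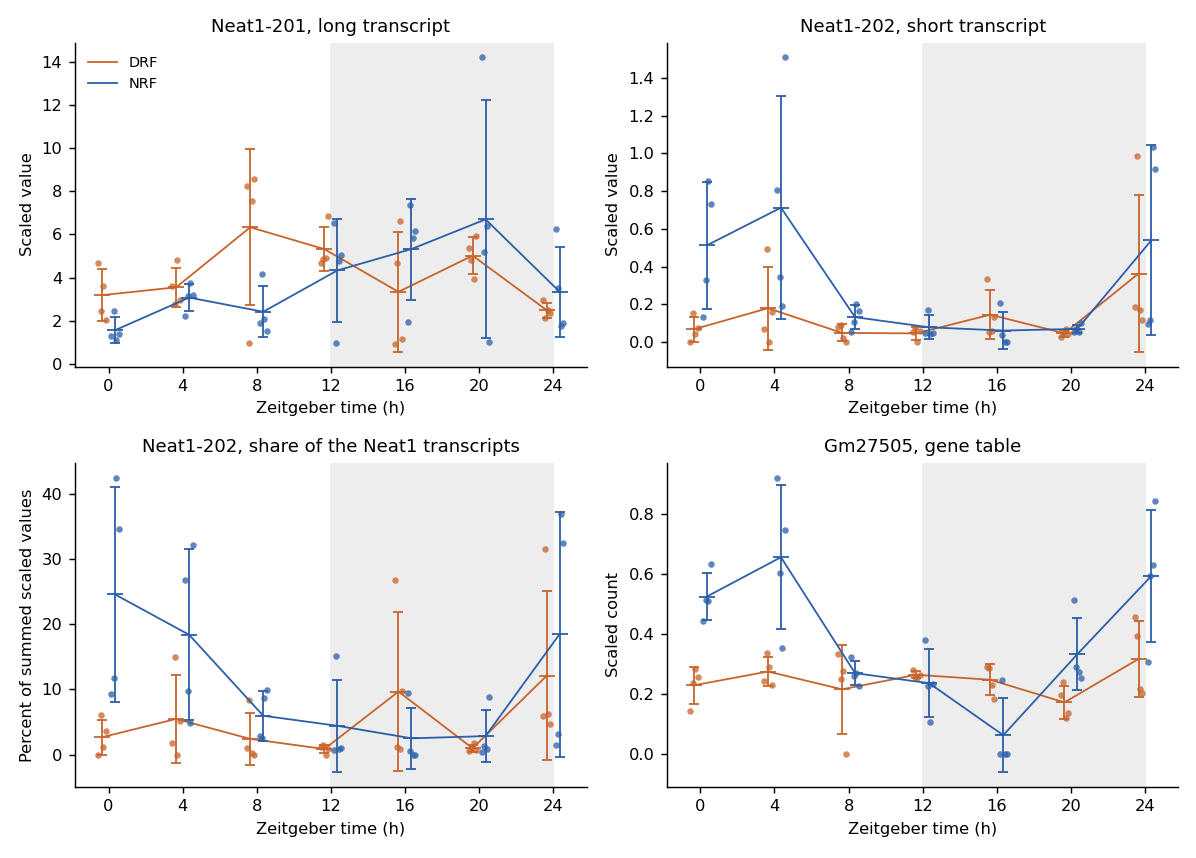
Scaled values of the long Neat1-201 and the short Neat1-202, the percentage of Neat1-202 in the summed scaled values of the Neat1 transcripts, and scaled counts of Gm27505 against zeitgeber time, with 1 point per animal, the mean ± SD of 4 animals, lines between means and grey for the dark phase. Under NRF the short form and Gm27505 were high at ZT0, ZT4 and ZT24, with group means of 0.513 to 0.713 and 0.525 to 0.655, and low from ZT8 to ZT20, while the long form was lowest at ZT0.

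A small annotated RNA inside the 5′ part of Neat1 has values of its own, which are not a separate measure of the locus. Gm27505 (ENSMUSG00000098974, misc_RNA) lies on the same strand at chr19:5844638-5844747, 110 bases that are positions 732 to 841 of Neat1-201 and are contained in Neat1-202 too. It was taken up after the values of the transcripts were seen. Its sequence is part of both forms of Neat1, so its reads cannot be told apart from those of either form.
Gm27505 within Neat1: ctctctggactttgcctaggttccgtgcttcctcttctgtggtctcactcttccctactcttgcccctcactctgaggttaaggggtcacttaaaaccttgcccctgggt

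Gm27505 had its high values in the same NRF groups as the short form. Under NRF the animals had 0.444, 0.512, 0.509 and 0.633 scaled counts at ZT0, 0.920, 0.602, 0.355 and 0.744 at ZT4, and 0.308, 0.593, 0.629 and 0.842 at ZT24. Its NRF group means at the other times were lower than the means at ZT0 (0.525), ZT4 (0.655) and ZT24 (0.593), at ZT8 (0.270 ± 0.0389), ZT12 (0.237 ± 0.112), ZT16 (0.0641 ± 0.122, where 3 of 4 animals had a recovered count of 1) and ZT20 (0.333 ± 0.121). Under DRF the group means stayed between 0.173 and 0.317. Recovered counts of Gm27505 ranged from 1 to 483 with a median of 140, and 4 libraries had a recovered count of 1. In these libraries Neat1 had recovered counts of 7338 (DRF ZT8 replicate 4) and of 1657, 3505 and 4088 (NRF ZT16 replicates 1, 3 and 4). The part of read assignment in the Gm27505 values was not tested.

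In the limma fit over all genes Gm27505 passed for a rhythm under NRF (log2 amplitude 0.28, peak 2.40 h, adjusted p = 1.45e-08) and not under DRF (0.02, adjusted p = 0.907), and the cosines differed between the regimens by 0.26 (adjusted p = 6.69e-05). The Kendall test called the NRF rhythm as well (tau 0.867, adjusted p = 1.75e-05). Gm27505 was lower under DRF at ZT0 (log2 difference -0.31, adjusted p = 0.00977), ZT4 (-0.36, adjusted p = 0.0017) and ZT24 (-0.27, adjusted p = 0.0315). At ZT16 it was higher under DRF by 0.24 (adjusted p = 0.0615), which did not pass, but did on deposited values (4.15, adjusted p = 0.000305), with a pseudocount of 0.1 (adjusted p = 0.00403) and under quantile normalization (adjusted p = 0.0326). The 3 calls at ZT0, ZT4 and ZT24 were lost on deposited values (adjusted p = 0.48, 0.462 and 0.66) and with each library's trend with gene length removed (adjusted p = 0.463, 0.0954 and 0.154). The ZT24 call was also lost with a pseudocount of 0.1 (adjusted p = 0.154) and in 5 of the fits without 1 library (adjusted p up to 0.19), those without DRF ZT24 replicate 3 or 4 or NRF ZT24 replicate 2, 3 or 4. With the length trend removed the regimen difference of the cosines was lost too (adjusted p = 0.0864), and the NRF rhythm was kept. How the counting divided reads between Gm27505 and Neat1 is not given in the sources used here.

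Over the 14 group means Gm27505 had Pearson r = 0.899 with Neat1-202, -0.531 with Neat1-201 and -0.398 with Neat1, given as a description because these values share sequence. Within groups, over 56 libraries, the deviations of Gm27505 and Neat1-202 had Pearson r = 0.464 (adjusted p = 0.0386) and Spearman rho = 0.417 (adjusted p = 0.0191) by permutation within groups, over 5 relations added after the values were seen. The r was 0.336 without the 2 libraries farthest out. The deviations of Neat1-202 and Neat1-201 had r = -0.379 and rho = -0.587 (adjusted p = 1e-04 and 5e-05), which the division of shared reads builds in to some extent. The other annotated small RNAs inside the members, Gm28006 in Neat1 and Gm27694 in Malat1, each averaged 0.00200 scaled counts, and Gm27533 in Neat1 had no value. Gm37376, on the opposite strand inside Malat1, averaged 0.310 scaled counts, and its cosines differed between the regimens by 0.17 (limma, adjusted p = 0.00269), with its DRF peak at 8.23 h and its NRF peak at 23.0 h. Whether the counting used strand is not given in the sources used here, so its reads may hold reads of Malat1.

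The next question was whether the wide spread between animals was shared by both genes. It was not detectable as shared: the deviations of Neat1 and Malat1 from their group means had Pearson r = 0.136 and Spearman rho = 0.025 over 56 libraries (permutation within groups, adjusted p = 0.541 and 0.87 over 5 relations), with r = -0.0608 among DRF and 0.23 among NRF libraries. No relation of Neat1 with the library measures passed (adjusted p of r = 0.541 with the length index and 0.412 with the total recovered count).

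Malat1 deviated together with measures of the library. The length index is the rank correlation, across genes, of a gene's exon length with its deviation in that library, so it is higher where long genes read high. Malat1 had r = 0.531 and rho = 0.405 with it (adjusted p = 0.0187 and 0.0279), with r = 0.507 without the 2 libraries farthest out. Among NRF libraries r was 0.689 and among DRF libraries -0.076, and this difference was not tested. With the log2 total recovered count Malat1 had r = -0.482 and rho = -0.493 (adjusted p = 0.0048 and 0.0042), with r = -0.63 among DRF and -0.433 among NRF libraries. Group means of the length index ran from -0.231 at DRF ZT8 to 0.182 at NRF ZT24, with -0.147 at NRF ZT8 and 0.112 at NRF ZT20. The NRF rhythm of Malat1 stood with the length trend removed and with the total recovered count as a covariate (adjusted p = 0.00828 and 0.00439).

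The deviations of Malat1 were next compared with those of 6 other nuclear long noncoding RNAs. Meg3 and Mir17hg, measured as well, were not among them. Over 12 relations added after the values were seen, its deviations went with those of Kcnq1ot1, the antisense RNA of an imprinted cluster (r = 0.80, rho = 0.754), Xist, which coats the inactive X chromosome (r = 0.754, rho = 0.696), Firre (r = 0.744, rho = 0.693), Airn, another imprinted antisense RNA (r = 0.71, rho = 0.605), and Pvt1 (r = 0.677, rho = 0.655), each with an adjusted p between 4e-05 and 0.000168. The r stayed between 0.627 and 0.773 without the 2 libraries farthest out. It was between 0.753 and 0.897 among NRF libraries and between 0.402 and 0.465 among DRF libraries. Tug1 did not pass (r = 0.195, rho = 0.23, adjusted p = 0.276 and 0.243). Neat1 passed with none of the 6, with r at most 0.395 (Pvt1, adjusted p = 0.0749). The r of Malat1 over all genes is not given here, and Malat1 also went with the library measures above. These relations are therefore not shown to be particular to nuclear RNAs.

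**Figure D4:**
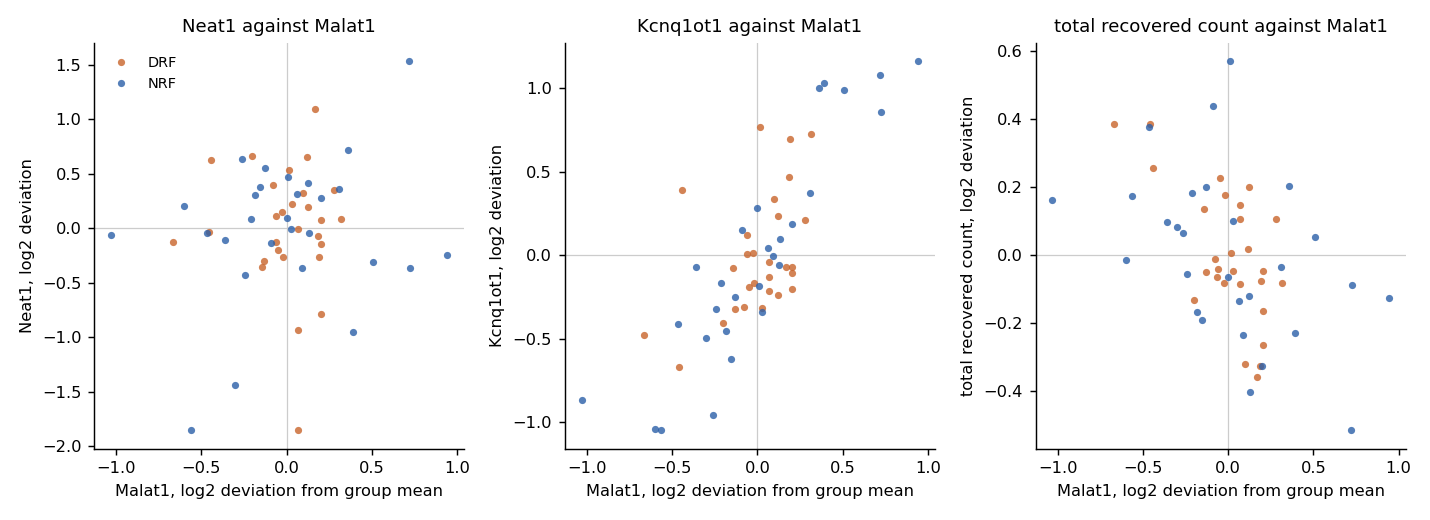
Deviations from the group mean on the log2 scale in 56 libraries, with Malat1 on every x axis and Neat1, Kcnq1ot1 and the total recovered count on the y axes; orange points are DRF and blue points NRF libraries. Kcnq1ot1 rose along with Malat1 (r = 0.80), the total recovered count fell (r = -0.482), and Neat1 showed no relation (r = 0.136).

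The partners of both RNAs were looked at as lists. Of 20 paraspeckle proteins, all measured, 9 passed for a rhythm under DRF (45%), 11 under NRF (55%), 14 for a difference between the cosines (70%) and 10 for a difference after the 12-h shift (50%), and 0 for the mean. Over all genes tested the shares were 34.8%, 43.5%, 38.7%, 34.2% and 6.73% in the same order. The medians of the log2 amplitude were 0.22 under DRF and 0.18 under NRF, against 0.09 and 0.10 over all genes tested. Sfpq, an essential paraspeckle protein, had its DRF peak at 6.58 h (log2 amplitude 0.49) and its NRF peak at 18.8 h (0.39), and its cosines differed by 0.88 (limma, adjusted p = 1.69e-11). Its partner Nono, by contrast, had a difference of 0.11 (adjusted p = 0.0315) with no rhythm called in either regimen (adjusted p = 0.345 and 0.0811). The 3 other members with the smallest p of that difference were Tardbp (0.59), Dazap1 (0.49) and Smarca4 (0.54), a subunit of a chromatin-remodelling complex.

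Of 20 nuclear speckle proteins, 15 passed for a rhythm under DRF (75%), 12 under NRF (60%), 14 for a difference between the cosines (70%), 10 after the 12-h shift (50%) and 0 for the mean, against 34.8%, 43.5%, 38.7%, 34.2% and 6.73% of all genes. The lowest mean scaled count in this list was 1.999 (Pnn), so the same limit on the comparison with all genes holds. The 4 with the smallest p of the cosine difference were the splicing factors Srsf2 (0.66, with a DRF peak at 7.04 h and an NRF peak at 20.2 h) and Srsf3 (0.62), the splicing-associated Thrap3 (0.67, with peaks at 19.7 h and 6.93 h) and the RNA helicase Ddx39b (0.31, with peaks at 8.15 h and 22.3 h). Of these 4, Thrap3 was the one with its peak in the dark phase under DRF and in the light phase under NRF.

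Of 12 genes of RNA end processing and turnover, 3 passed for a rhythm under DRF (25%), 8 under NRF (66.7%), 7 for the cosine difference (58.3%), 7 after the 12-h shift (58.3%) and 0 for the mean. The shares of all genes were 34.8%, 43.5%, 38.7%, 34.2% and 6.73%, so the list's share lay below that of all genes under DRF and above it under NRF. The lowest mean scaled count in this list was 1.40 (Rpp40), and the limit on the comparison with all genes holds here too. Mettl16, a methyltransferase known to bind the triple helix of Malat1, had its DRF peak at 7.48 h and its NRF peak at 22.3 h (difference 0.45, adjusted p = 2.96e-09). Pop1, a subunit of RNase P, passed under NRF (log2 amplitude 0.34, adjusted p = 4.81e-08) and not under DRF (adjusted p = 0.609), with a difference of 0.31 (adjusted p = 0.000157). Ints11, the nuclease of the Integrator complex (0.19), and Exosc10, a nuclease of the nuclear exosome (0.26), were the others with the smallest p. Elac2, which trims the mascRNA after the RNase P cut, passed in neither regimen (adjusted p = 0.171 and 0.156).

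Of 11 other nuclear long noncoding RNAs, 8 were measured, and Gm26917, Norad and Miat had no value. Among the 8, 1 passed for a rhythm under DRF (12.5%, against 34.8% of all genes), 3 under NRF (37.5%, against 43.5%), 1 for the cosine difference (12.5%, against 38.7%), 1 after the 12-h shift (12.5%, against 34.2%) and 1 for the mean (12.5%, against 6.73%). Kcnq1ot1 (log2 amplitude 0.56, peak 20.2 h, adjusted p = 0.02) and Pvt1 (0.32, 20.9 h, adjusted p = 0.0486) passed under NRF with peaks near that of Malat1, and Mir17hg passed in both regimens (difference 0.25, adjusted p = 0.000179). Meg3 was lower under DRF (log2 difference -0.20 ± 0.06 SE, adjusted p = 0.0363), at 0.338 scaled counts on average. The 4 with the smallest p of the cosine difference were Mir17hg, Kcnq1ot1, Pvt1 and Meg3.

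Of 30 genes within 150 kb of either member, 27 had a value. Under DRF 7 passed for a rhythm (25.9%), under NRF 13 (48.1%), 11 for the cosine difference (40.7%), 10 after the 12-h shift (37%) and 1 for the mean (3.70%). The shares of all genes were 34.8%, 43.5%, 38.7%, 34.2% and 6.73%. Among those with the smallest p were Slc25a45, a mitochondrial carrier gene (difference 0.74, DRF peak at 7.44 h, NRF peak at 20.4 h), the antisense gene Gm42067 (0.47) and 1 of the 2 genes named Sssca1 (ENSMUSG00000118125, 0.32). The other gene of that name (ENSMUSG00000079478) had a difference of 0.07 that did not pass (adjusted p = 0.453). Sipa1 was lower under DRF (log2 difference -0.13 ± 0.04 SE, adjusted p = 0.022). Frmd8, the protein-coding gene closest to Neat1 and on the same strand, has its 3′ end 4224 bases upstream of the start of Neat1. Its cosine difference of 0.16 did not pass (adjusted p = 0.319). Frmd8os, whose annotation begins 145 bases from that of Neat1 on the opposite strand, averaged 0.0157 scaled counts. Some of these neighbours were recovered with an exon length that was searched on the values, unlike both members.

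Over the 14 group means the genes most like Neat1, among 13557 compared, were Pcgf6 (r = 0.839), Mfsd2b (0.802), Arl1 (0.787), Phlpp2 (0.758) and Wrb (0.747). Those most like Malat1 were Gm44699 (0.921), Kirrel3 (0.90), Gm12940 (0.887), Rfx7 (0.879) and Gm26625 (0.874). Neat1 and Malat1 had r = 0.481 with each other over these means. These are descriptions over 14 points, chosen as the highest of many.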

How the data were processed

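Total RNA of 56 livers was depleted of ribosomal RNA and made into strand-specific libraries per the labels' protocol, while the labels' molecule field reads polyA RNA. The submitters' processing notes name CASAVA 1.8, featureCounts 1.5.0-p3, mm10 and GRCm38.p6. The aligner and the strand setting of the counting are not given in the sources used here. The gene and transcript values deposited by the authors are named TPM but do not behave as such. They are treated as a score: a deposited value times exon length followed a logarithm of 1 plus a library factor times a whole number. These whole numbers, called recovered counts, were obtained by inverting that curve. Their sum per library, in units of 1000000, was 301 to 676, and they are not called reads, and the read depth was not taken from them. Held-out values fell within 0.05 of a whole number in 96.8% to 99.2% of cases, depending on size (10% by chance). Malat1 was whole within a wider tolerance of 0.2 (40% by chance) and Neat1 within 0.05. The check of Malat1 left out libraries above an upper limit of recovered counts. Every NRF ZT20 library (307581 to 520306 recovered counts) lay above that limit, so the wholeness of these Malat1 values was not judged. Of 25415 genes 25095 were used. Transcript values are the authors' estimates, and 56465 of 56680 annotated transcripts were used. Their scaled values came from a curve fitted per library on genes with a single annotated transcript. Of the transcripts fitted, 41.8% to 48.4% per library lay within 2% of that curve. The wholeness given above is for gene values and does not extend to transcript values.

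Groups came from the labels, and 0 columns were left without a sample. Animals were housed in groups, and which of them shared a cage is not stated, so p-values measure only the spread between these animals. Tests used limma 3.58.1 in R 4.3.3 on log2(scaled count + 1), with a fold on that scale understating low genes, all 56 libraries in 1 fit, a 24-h cosine per regimen or 1 mean per group, and a threshold of 0.05 on Benjamini-Hochberg adjusted p. A filter on a mean deposited value of at least 0.1 removed 0 genes. Single-gene cosines, exact and permutation tests (100000 permutations) and an exact Kendall test (12 templates, 2 h apart, adjusted over genes) used Python 3.11.15, numpy 2.4.6, scipy 1.17.1 and pandas 2.3.3, and figures matplotlib 3.10.9. The procedures were tested on simulated data. The members and lists were chosen with earlier results of these data known. Genes named were the members, genes within 150 kb, overlapping genes, up to 4 genes per list with the smallest adjusted p of the cosine difference, and the 5 genes most like each member. 1 gene that this rule names is not reported here. Gm27505 relations, the other nuclear RNAs' relations, Nono, Elac2, Meg3, Kcnq1ot1 and Pvt1 values beyond that rule, the covariate of total recovered count, and leaving out libraries for transcripts were chosen after seeing the data. Alternatives covered scaling, pseudocounts, filters, deposited values, gene length, the replicate number, single libraries and the ZT0 or ZT24 libraries. Circular RNAs were not analysed here, because the table names no host gene. Sequences came from the reference annotation and RefSeq.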

Additional observations from a re-analysis of the deposited data

Results flagged for a closer look

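In 14 of 84 sets of 4 values, 1 library lay far from the other 3 by Dixon's test. Chance flags about 1 in 20 sets of independent continuous values, and these sets are not that: Neat1 and Neat1-201 as well as Malat1 and Malat1-201 come from the same libraries, and in 5 sets of Neat1-204 the other 3 libraries were at 0, where any value above 0 passes. For Neat1 these were the lowest DRF ZT8 library (1.86 scaled counts, the others 13.997 to 15.4) and the highest DRF ZT12 library (12.8, the others 8.79 to 9.28). The long Neat1-201 stood apart in the same groups, with 0.966 scaled values at DRF ZT8 (the others 7.56 to 8.58) and 6.84 at DRF ZT12 (the others 4.68 to 4.89). For Malat1 they were the lowest DRF ZT12 library (417 scaled counts, the others 755 to 804) and the highest NRF ZT0 library (969, the others 457 to 527), and for Malat1-201 the lowest DRF ZT16 library (116, the others 191 or more). The short Neat1-202 stood high in 1 library at DRF ZT24 (0.984, the others 0.116 to 0.185) and at NRF ZT12 (0.173, the others 0.0444 to 0.0516). Neat1-204 was above 0 in a single library at DRF ZT4 (0.0411), DRF ZT8 (0.0434), DRF ZT24 (0.00601), NRF ZT4 (0.0293) and NRF ZT8 (0.0217).

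The daily cosine of Malat1 differed between the regimens by 0.504 on the log2 scale and that of Malat1-201 by 0.461, each by limma's test of the difference itself (adjusted p = 0.0179 and 0.0383).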

How the results depend on the processing

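For both genes and their transcripts, 412 of 434 alternatives other than leaving out a library kept direction and side of the threshold, and where a call or sign changed the cause was not tested. The NRF rhythm of Malat1 by limma was kept under each alternative fit of that model. With the replicate number as a block it was 0.3896 (adjusted p = 0.00547), and the block changed none of 52 calls. The numbers did not pair the samples: 0 of 28 same-number pairs had a correlation over 0.1, and 17 of 56 libraries were closest to their own number. On deposited values the Malat1 cosine difference was 0.07987 (adjusted p = 0.0668), that of Malat1-201 0.09758 (0.0604), and Malat1 passed after the 12-h shift (0.1146), for ZT24 against ZT0 under NRF (0.1343) and for any time difference under NRF (0.2033). On these values the sign turned for Malat1 at ZT0 (0.03443), for ZT24 against ZT0 under DRF (0.03282), for Neat1 at ZT20 (0.07056), and for Gm27505 in the DRF rhythm's direction (0.2867) and the mean (0.08127). With length trends removed it turned for Gm27505 under DRF (0.0835), Neat1 at ZT4 (0.09446) and Neat1 ZT24 against ZT0 under DRF (-0.1212), and Neat1-204 passed after the 12-h shift (0.1032). With the total recovered count as a covariate it turned for Malat1 at ZT0 (0.06979) and ZT12 (-0.06239) and Neat1 at ZT4 (0.007943), and any time difference of Malat1 under NRF passed (0.9205). A pseudocount of 0.1 turned Neat1 at ZT20 (0.01388), and a mean of at least 1 let Malat1 at ZT20 pass (-0.7175). The Kendall test (adjusted p = 0.1539) and the permutation of the regimen (adjusted p = 0.05504) did not call Malat1. Without ZT0 the Neat1 mean difference became -0.1614 scaled counts, and without ZT24 the peak differences were -7.121 h for Neat1 and -8.805 h for Malat1 and did not pass. The relation of Malat1 with the length index was -0.07602 among DRF libraries, where r was -0.06076 between Neat1 and Malat1 and -0.1636 between Neat1 and the length index.

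Leaving out 1 library kept all calls for 38 of 58 results on both genes and their transcripts. Values that changed sign ranged from -0.1472 to 0.2143 for Malat1 at ZT0, from -0.4722 to 0.1858 at ZT4 (NRF ZT4 replicate 1), for Neat1 from -0.1905 to 0.02199 at ZT4, from -0.0522 to 0.6655 at ZT12 (NRF ZT12 replicate 2), from -0.6704 to 0.457 at ZT20, from -0.2916 to 0.06324 at ZT24 (NRF ZT24 replicate 1) and from -0.09535 to 0.1556 for ZT24 against ZT0 under DRF, for Gm27505 from -0.1172 to 0.01999 at ZT8, from -0.01545 to 0.09093 at ZT12 and from -0.019 to 0.1457 for ZT24 against ZT0 under NRF, for the Neat1-204 mean from -0.005199 to 0.001537 (NRF ZT20 replicate 3), and for the Neat1 amplitude difference from -1.839 to 0.01971 scaled counts (NRF ZT20 replicate 1). Calls were gained in some fits by Neat1 at ZT8 (0.5775 to 1.416, DRF ZT8 replicate 2), Malat1 at ZT20 (-0.9051 to -0.4777, in 4 fits), any time difference under NRF of Neat1 (0.9855 to 1.719, NRF ZT20 replicate 4) and Malat1 (0.8337 to 1.076, in 6 fits), the NRF rhythm of Neat1-204 (0.0194 to 0.03344, in 8 fits), Gm27505 at ZT16 (0.2095 to 0.3147, in 5 fits) and in the mean (-0.1091 to -0.08528, in 4 fits), the Neat1-202 cosine difference (0.2092 to 0.297, DRF ZT24 replicate 2) and the Malat1 amplitude difference (-153.3 to -73.93, NRF ZT4 replicate 1). Calls were lost in some fits by Gm27505 at ZT24 (-0.36 to -0.1953, in 5 fits), the Malat1-201 NRF rhythm (0.3061 to 0.4401, NRF ZT20 replicate 1) and cosine difference (0.4125 to 0.5266, in 12 fits) and by the peak differences of Neat1 (-7.675 to -5.415 h, in 21 fits) and Malat1 (-9.621 to -7.881 h, in 20 fits).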
